A study of Mus musculus with 6 samples.

Results

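Tsc22d3, Nfkbia, Dusp1, Cebpd, Sgk1, Errfi1, Ddit4 and Cdkn1a are 8 genes that glucocorticoids are known to induce in many tissues, and their chromatin was examined here in astrocytes with and without the glucocorticoid receptor (GR). A peak was taken as belonging to one of these genes when its summit lay in the gene body or within 50 kb of it, by the GENCODE annotation of the mouse genome build mm10. By this rule the 8 genes held 169 of the 160874 sites compared across the libraries, where a site reaches 200 bp to each side of a summit and is one at which at least 2 of the 6 libraries had a peak. The rule used position only, and 119 of the 169 sites had a peak in all 6 libraries.

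Accessibility had been measured by ATAC-seq, which uses the Tn5 transposase to cut and tag open DNA, in nuclei sorted by GFP and the DNA dye DRAQ5 from primary visual cortex (V1) of mice at postnatal day 21. The mice of both conditions carried floxed alleles of the receptor gene (GR fl/fl) and received an AAV2/5 virus at P0-P1. In 3 GR-KO libraries the virus encoded Cre together with an EGFP-KASH tag that marks the nuclear envelope, and in 3 GR-Con libraries it encoded the inactive ΔCre with the same tag. Both were driven by GfaABC1D, a short form of the Gfap promoter that is active in astrocytes, so that deletion depends on infection and on this promoter. Each library was made from tissue pooled from 3 to 4 mice per the study's methods. The limma p-values below compare such pools, and limma takes the spread of a site partly from that of other sites.

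The glucocorticoid receptor rests in the cytoplasm until it binds corticosterone, the main glucocorticoid of rodents, and then enters the nucleus and binds DNA, usually as a pair of receptors on a palindromic element. Much of its binding lies in enhancers away from gene starts, where it recruits coactivators and remodelling enzymes that open the chromatin. Genes such as those described here are among its best known targets, and the products of several of them hold back inflammatory signalling, growth factor signalling and cell division.

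At Nr3c1, the deleted gene, which encodes the receptor, the site with the smallest p was intronic, and its peak had a −log10 p of 126, 135 and 106 in GR-Con 1, 2 and 3, against 20.8, 11.2 and 18.6 in GR-KO 1, 2 and 3 (score difference −0.96; adjusted p = 1.42e-05). A second Nr3c1 site went the other way, with no peak in any GR-Con library and 20.9, 13.9 and 22.6 in GR-KO 1, 2 and 3 (score difference 1.56; adjusted p = 0.00730). The promoters of all 8 astrocyte markers examined held a peak in every library, and no promoter peak was found at Mog, Mag, Mobp, Cx3cr1, C1qa, Itgam, Pecam1 or Tek. Other markers of those lists did have a promoter peak in every library, with a −log10 p of 119 to 165 at Snap25 (neurons), 99.8 to 136 at Cnp (oligodendrocytes) and 24.6 to 49.8 at P2ry12 (microglia). The summed −log10 p over the astrocyte promoters was 1611 to 1722 in GR-Con and 1801 to 1842 in GR-KO, and over the 5 endothelial promoters it was 29.0 to 36.9 in GR-Con and 21.6 to 26.2 in GR-KO. For the 5 neuronal, 5 oligodendrocyte and 5 microglial markers the ranges of these sums overlapped, at 254 to 298, 108 to 140.0 and 35.4 to 63.6 in GR-Con and 232 to 276, 99.8 to 124 and 45.3 to 82.1 in GR-KO. By single gene, however, 3 of the 5 neuronal promoters, Rbfox3, Gad1 and Gad2, and 2 of the 5 endothelial ones, Cldn5 and Kdr, were lower in every GR-KO than in every GR-Con library. Among the 8 astrocyte promoters 1 was lower and 3 were higher in this way, and of the 5 microglial ones 1, Tmem119, was higher. Over all sites compared, ranks did not overlap at 8.46% that were lower and 11% that were higher in GR-KO. The part of these marker values in the results below was not tested. The lists held 184618 to 198929 peaks in GR-Con and 179462 to 184056 in GR-KO. The background the peak caller assumed over the genome, which follows depth, differed between libraries by little, at 96.3 to 110.5% of their mean, and GR-Con 3 was the deepest.

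Each deposited peak carries a −log10 p, which grows with the number of reads at the summit, and a fold enrichment over the background that the caller took from the surroundings of the same library. Within a library, sites were put in order of one of these values, with those lacking a peak last, and each place in the order was given its normal score. Scores were compared between conditions with limma over all sites, with Benjamini-Hochberg adjustment and a limit of 0.05, and a score difference is GR-KO minus GR-Con. Of the 169 sites, 9 were lower in GR-KO by the rank of −log10 p, or 5.33%, against 0.839% of all sites tested. A further 2 were higher, or 1.18%, against 0.764% of all sites. The lower sites lay at Ddit4, Tsc22d3, Errfi1 and Cdkn1a, and both higher sites lay in the window of Dusp1. At all 9 lower sites every GR-KO library ranked below every GR-Con library. Without the variance trend in limma 1 site was lower and 0 were higher, and 0 were higher without any 1 library. The lower sites numbered 2 without GR-Con 1, 2 without GR-Con 2, 4 without GR-Con 3, 5 without GR-KO 1, 6 without GR-KO 2 and 5 without GR-KO 3.

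Sites of these genes went in both directions. The median score difference over the 169 sites was −0.03, with 88 sites below 0 and 81 above, and over all sites it was 0.01. At an unadjusted p under 0.05, 27 of the 169 sites were lower, or 16%, against 6.37% of all sites, and 16 were higher, or 9.47% against 6.98%. The conditions did not overlap in rank at 26 sites that were lower in GR-KO, or 15.4% against 8.46% of all sites, and at 23 that were higher, or 13.6% against 11% of all sites. No site had a peak in every library of one condition and none of the other, whereas 1.15% of all sites had peaks in GR-Con only and 0.622% in GR-KO only. The 8 windows together held 200, 204 and 205 peaks in GR-Con 1, 2 and 3 and 186, 197 and 183 in GR-KO 1, 2 and 3. The GR-Con counts were the higher ones (exact permutation test, two-sided p = 0.1, the smallest that 3 against 3 allow), but the GR-Con lists were also the longer ones. Per 100000 listed peaks the GR-Con libraries had 107 ± 3.78 (SD, n = 3) in these windows and the GR-KO libraries 103 ± 3.83 (SD, n = 3), and these overlapped (exact permutation test, two-sided p = 0.3).

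**Figure D1:**
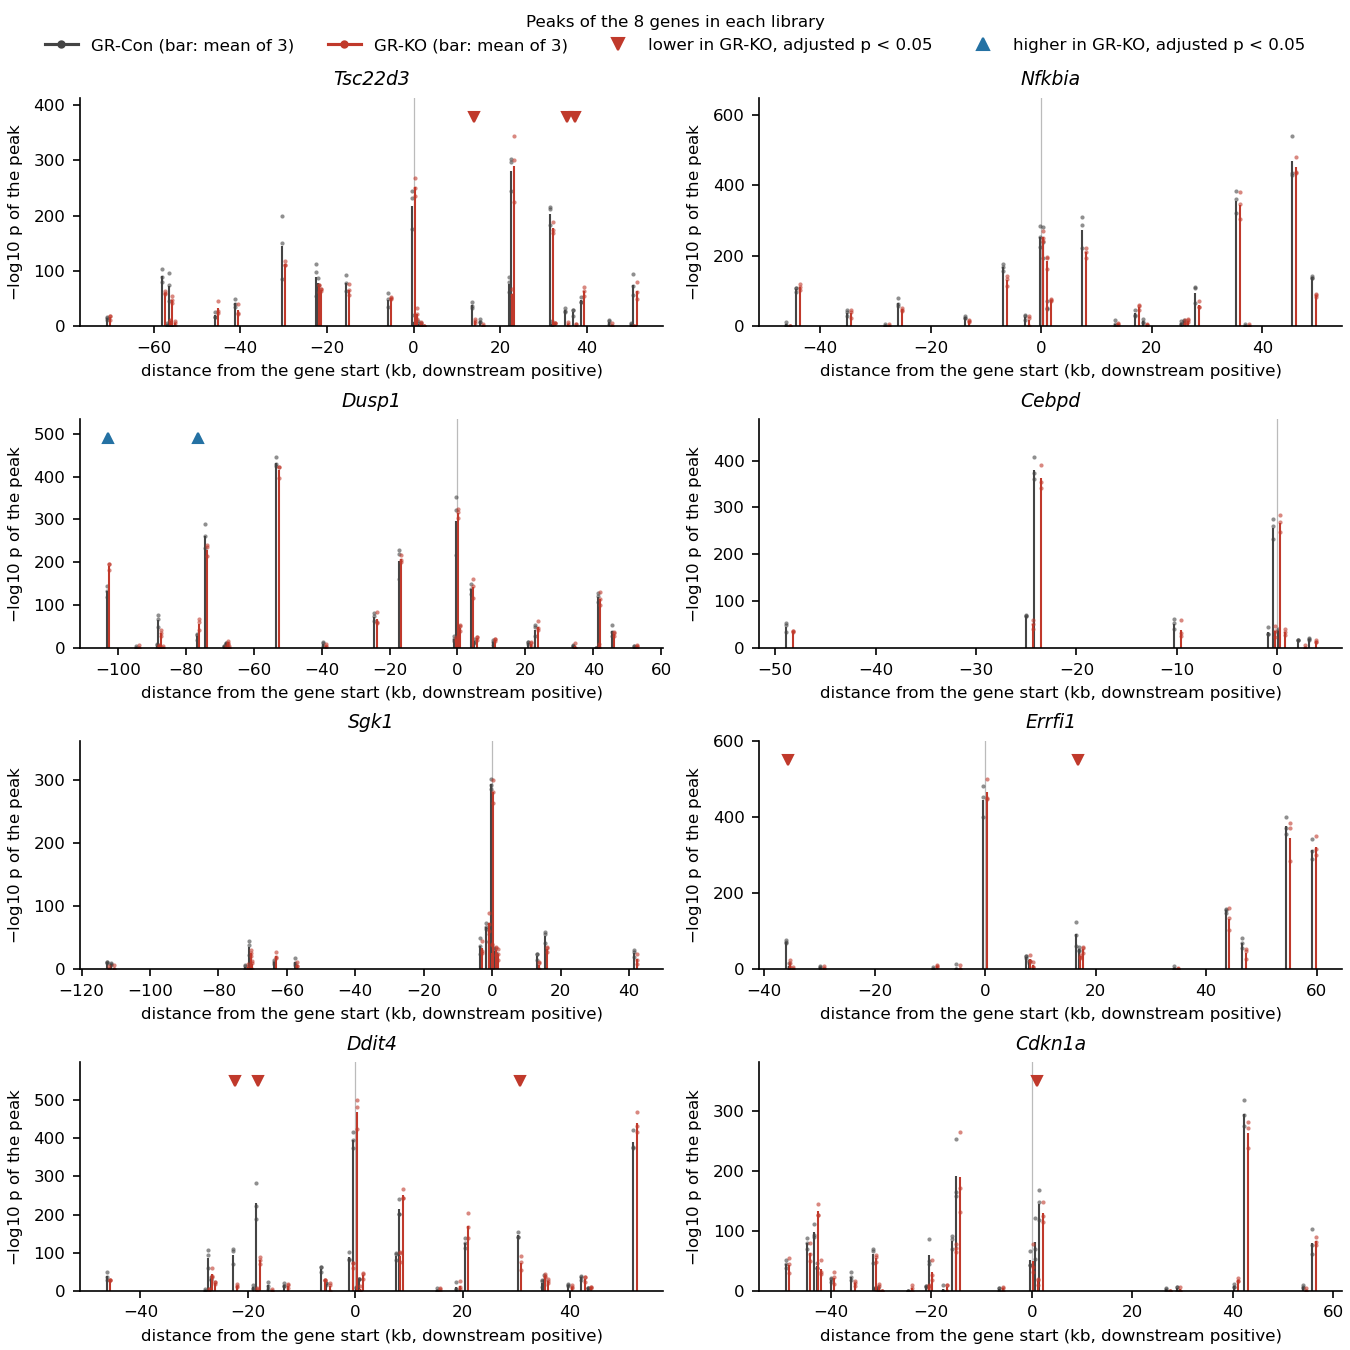
Each panel plots the −log10 p of the peak at every site of a gene against its distance in kb from the start of a transcript of that gene, with a point for each library (a library without a peak is drawn at 0) and a bar for the mean of the 3 GR-Con or 3 GR-KO libraries. Triangles mark the 9 sites lower and the 2 higher in GR-KO by limma. All but 1 of the lower sites lie over 1 kb from a start, as do 84.6% of the 169.

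The promoters of the 8 genes were open in both conditions. Of the 169 sites, 26 lay within 1 kb of an annotated start of the gene, and of these 1 was lower in GR-KO and 0 were higher; the lower one, in the first part of Cdkn1a, is described below. Of the 143 sites further away, 8 were lower and 2 were higher. The shares that were lower were 3.85% near a start and 5.59% further away, and their difference was not tested. The 9 lower sites lay 948 to 37196 bp from the nearest start, with a median of 22442 bp, against 17407 bp over the 169. Of the 9, 8 were intergenic, against 79 of the 169, or 46.7%.

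The lower sites were searched for the DNA element that the receptor is known to bind as a pair, written here as GNACA, any 3 bases, then TGTNC, where N is any base. This pattern reads the same on both strands. Within 100 bp of the centre it was found in 5 of the 169 sites, or 2.96%, and in 0.643% of all sites. It was found in 4 of the 9 lower sites, or 44.4%, and in 17.3% of the 1350 sites that were lower over the genome. With up to 1 of its 8 fixed bases changed it was found in 24 of the 169 sites, or 14.2% against 8.84% of all sites, and in 6 of the 9, or 66.7%, against 57.3% of the sites lower over the genome. The half-site AGAACA, which can overlap the palindrome, was in 18.9% of the 169 sites and 17.4% of all sites. It was in 5 of the 9 lower sites, or 55.6%, and in 42.7% of the sites lower over the genome. Over the 169 and over all sites the NFI half-site TTGGCA was in 27.2% and 20.8%, and the AP-1 site TGANTCA in 7.69% and 6.27%. The NFI half-site was in 1 of the 9 lower sites, or 11.1%, against 25.9% of the sites lower over the genome, and the AP-1 site in 0 of the 9, against 5.56%. The half-sites and the AP-1 site were sought on both strands. A match is a match of letters and does not show that the receptor was bound.

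The 5 palindromes are shown because 4 of them lie in sites that ranked lower in GR-KO. They are given with 8 bases to each side, on the plus strand of mm10, 5′ to 3′, with the palindrome in capitals. Their positions are chr10:59974266-59974294 for Ddit4, chr17:29094692-29094720 for the intron of Cdkn1a, chrX:140505958-140505986 and chrX:140507814-140507842 for Tsc22d3, and chr17:29147958-29147986 for the site beyond Cdkn1a.
Ddit4, 22442 bp upstream: cagagccaGAACACAATGTTCtcagctca
Cdkn1a, 948 bp downstream of a start: tttggcggGCACAGTATGTTCccagggaa
Tsc22d3, 37196 bp downstream of a start: ggactaggGTACAGAATGTACccagactt
Tsc22d3, 35326 bp downstream of a start: tttggcttGAACAGTGTGTCCccaatttt
Cdkn1a, 50126 bp downstream of a start: tttcaaggGAACAGAATGTCCatccactt

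Ddit4 (ENSMUSG00000020108.4, chr10:59949669-59951834, minus strand) encodes REDD1, an inhibitor of the growth kinase complex mTORC1. It had 27 sites and the lowest adjusted p of the 8 genes, with 3 sites lower and 0 higher in GR-KO. The site 22442 bp upstream of its start, chr10:59974076-59974476, is intergenic and holds the Ddit4 palindrome printed above. Its peak had a −log10 p of 109, 104 and 70.9 in GR-Con 1, 2 and 3, against 16.9, 10.4 and 11.8 in GR-KO 1, 2 and 3. Every GR-KO library was thus far below every GR-Con library. The score fell by 0.93 ± 0.10 (SE; adjusted p = 5.09e-05). The coverage of the summit, solved from the deposited p and fold and scaled by depth, was 217, 223 and 145 reads in GR-Con and 48.0, 40.5 and 42.0 in GR-KO, a log2 difference of −2.14 (adjusted p = 1.24e-29 over sites with a peak in all 6 libraries). So small a p-value, like the other coverage p-values, rests on spread shared between sites and not on the libraries of this site alone.

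A second site, 18102 bp upstream at chr10:59969736-59970136, had a −log10 p of 222, 284 and 189 in GR-Con, against 70.8, 88.2 and 80.1 in GR-KO, and again no libraries overlapped. Its score fell by 0.61 ± 0.07 (SE; adjusted p = 5.83e-05), and it holds a match with 1 changed base. Another, 30579 bp downstream at chr10:59921055-59921455, had a −log10 p of 140, 142 and 155 in GR-Con, against 90.6, 75.7 and 55.3 in GR-KO, and its score fell by 0.35 ± 0.07 (SE; adjusted p = 0.00910). The bases within 100 bp of the centres of both upstream sites are given on the plus strand, chr10:59974176-59974376 and chr10:59969836-59970036, with the palindrome, or its match with 1 change, in capitals.
Ddit4, 22442 bp upstream: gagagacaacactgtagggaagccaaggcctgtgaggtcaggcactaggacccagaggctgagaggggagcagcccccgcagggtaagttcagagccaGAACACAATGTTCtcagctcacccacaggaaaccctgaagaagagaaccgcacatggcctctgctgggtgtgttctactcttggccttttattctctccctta
Ddit4, 18102 bp upstream: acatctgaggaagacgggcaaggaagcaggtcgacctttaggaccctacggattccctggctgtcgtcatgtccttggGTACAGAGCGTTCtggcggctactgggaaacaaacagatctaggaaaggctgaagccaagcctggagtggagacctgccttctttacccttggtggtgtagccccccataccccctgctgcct

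The promoter site of Ddit4, 98 bp upstream, was of another kind. Its −log10 p was 396, 417 and 374 in GR-Con and 499, 423 and 481 in GR-KO, so that every GR-KO library was above every GR-Con library, but the score difference of 0.23 ± 0.08 (SE) did not pass the test (adjusted p = 0.217). Both upstream sites remained lower without any 1 library, with an adjusted p of at most 0.0332. The downstream site lost its call without GR-Con 1, 2 or 3 or GR-KO 2 or 3 (adjusted p = 0.117, 0.120, 0.113, 0.0641 and 0.0772). Without the variance trend the site at 18102 bp had an adjusted p of 0.0635 and the downstream site of 0.235, and with the value of the strongest peak covering the site, in place of that of the summit inside it, the site at 22442 bp had an adjusted p of 0.144 and the downstream site of 0.126.

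Tsc22d3 (ENSMUSG00000031431.13, chrX:140539528-140600659, minus strand) encodes GILZ, the glucocorticoid-induced leucine zipper, an anti-inflammatory protein. It had 28 sites, of which 3 were lower in GR-KO and 0 higher by the rank of −log10 p, all 3 in intergenic DNA beyond the 3′ end of the gene. Distances are from the start of its short transcript. The site at 37196 bp, chrX:140505791-140506191, had a −log10 p of 30.2, 29.2 and 18.1 in GR-Con 1, 2 and 3, no peak in GR-KO 1, and 4.19 and 3.64 in GR-KO 2 and 3 (score difference −1.19 ± 0.26 SE; adjusted p = 0.0223). The site at 35326 bp, chrX:140507661-140508061, had 34.1, 28.6 and 26.1 in GR-Con, 5.04 and 8.62 in GR-KO 1 and 2 and no peak in GR-KO 3 (score difference −1.05 ± 0.25 SE; adjusted p = 0.0414). These neighbours each hold a palindrome, and in both 1 GR-KO library had no peak and the others had peaks weaker than any of GR-Con. The site at 13947 bp, chrX:140529040-140529440, had 37.5, 44.5 and 32.8 in GR-Con and 10.7, 6.19 and 14.3 in GR-KO (score difference −0.63 ± 0.15 SE; adjusted p = 0.0394), and no match to the palindrome within 1 change.

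A site 39101 bp from the short start, chrX:140503886-140504286, was the 1 site of the 8 genes that passed the test by the rank of fold. Its fold was 7.65, 6.77 and 7.29 in GR-Con and 13.9, 12.8 and 11.9 in GR-KO, without overlap, and its score rose by 0.55 (adjusted p = 0.0432). That call was lost without any 1 library (adjusted p = 0.133 to 0.198), without the variance trend (0.0692), with a block for the replicate number (0.195) and with sites of 100 bp to each side (0.0612). Its summit coverage differed less, at 97.4, 87.6 and 74.2 reads in GR-Con and 83.3, 82.0 and 72.7 in GR-KO (log2 difference −0.12; adjusted p = 0.812). The local background was lower in GR-KO, at 11.4, 11.7 and 10.4 in GR-Con and 5.19, 5.26 and 5.07 in GR-KO. The caller takes this background from the surrounding DNA of the same library. The palindromic sites lie 1905 and 3775 bp away from this site, and whether they bear on its background or fold was not tested. By −log10 p the site had 52.5, 43.5 and 44.7 in GR-Con and 71.1, 63.4 and 55.2 in GR-KO (adjusted p = 0.261).

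At the short start of Tsc22d3 the promoter site, 110 bp upstream, had a −log10 p of 232, 244 and 176 in GR-Con, against 250, 268 and 236 in GR-KO, with GR-KO 3 below the highest GR-Con value. By rank within its list every GR-KO library stood above every GR-Con library, but the difference did not pass the test (adjusted p = 0.414). Its fold was 10.5, 10.3 and 9.19 in GR-Con and 13.8, 14.4 and 13.8 in GR-KO, also without overlap and short of the limit (adjusted p = 0.0670). The 3 lower calls at Tsc22d3 were close to the limit. The site at 37196 bp lost its call without GR-Con 1, 2 or 3 or GR-KO 1 (adjusted p = 0.190, 0.176, 0.104 and 0.0512), that at 35326 bp without any library but GR-KO 2 (0.0851 to 0.269), and that at 13947 bp without any 1 library (0.0524 to 0.245). All 3 also lost it without the variance trend (0.0558 to 0.234) and with sites of 100 bp to each side (0.0923 to 0.149), and the sites at 35326 and 13947 bp with the strongest covering peak (0.182 and 0.323). With a block for the replicate number all 3 were lost too (0.0807 to 0.119).

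Errfi1 (ENSMUSG00000028967.10, chr4:150853919-150868892, plus strand) encodes MIG6, a feedback inhibitor of the EGF receptor. Of its 15 sites 2 were lower and 0 higher in GR-KO. The intergenic site 34616 bp upstream, chr4:150819103-150819503, had a −log10 p of 68.3, 77.1 and 71.7 in GR-Con 1, 2 and 3, against 16.3, 6.19 and 25.2 in GR-KO 1, 2 and 3. The GR-Con values were close together and the GR-KO values were all lower and more spread (score difference −0.78 ± 0.14 SE; adjusted p = 0.00719). The intergenic site 16864 bp downstream of a start, chr4:150871737-150872137, had 126, 89.8 and 62.0 in GR-Con and 39.0, 29.8 and 33.3 in GR-KO (score difference −0.43 ± 0.09 SE; adjusted p = 0.0164). Scaled summit coverage differed at these sites by −1.61 and −1.18 on the log2 scale (adjusted p = 9.89e-10 and 1.81e-08).

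The sequences of both sites are printed because they differ in the palindrome: the downstream site holds a match with 1 changed base, in capitals, and the upstream site holds none within 1 change. Both hold the half-site AGAACA on one strand or the other, which is left in lower case. They are on the plus strand, chr4:150819203-150819403 and chr4:150871837-150872037.
Errfi1, 34616 bp upstream: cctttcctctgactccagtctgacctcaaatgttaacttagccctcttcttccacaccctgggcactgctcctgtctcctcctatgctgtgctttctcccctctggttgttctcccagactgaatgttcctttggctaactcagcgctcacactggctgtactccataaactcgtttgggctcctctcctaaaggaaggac
Errfi1, 16864 bp downstream: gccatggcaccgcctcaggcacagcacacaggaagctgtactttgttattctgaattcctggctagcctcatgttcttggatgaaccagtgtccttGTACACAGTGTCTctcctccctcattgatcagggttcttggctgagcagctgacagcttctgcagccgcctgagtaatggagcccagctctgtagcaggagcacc

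At the promoter of Errfi1, 54 bp upstream of the downstream start, the −log10 p was 482, 455 and 400.6 in GR-Con and 501, 449 and 451 in GR-KO, among the strongest peaks of the lists and without a difference beyond the spread (adjusted p = 0.884). The upstream site lost its call without GR-Con 1, 2 or 3 (adjusted p = 0.173, 0.182 and 0.152), the downstream site without any library but GR-Con 3 (0.0601 to 0.204), and both without the variance trend (0.241 and 0.268), with the strongest covering peak (0.314 and 0.416) and with sites of 100 bp to each side (0.0661 and 0.0753). With the covering peak the score difference of the downstream site was −0.27.

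Cdkn1a (ENSMUSG00000023067.14, chr17:29090976-29100727, plus strand) encodes p21, an inhibitor of cyclin-dependent kinases that halts the cell cycle. Of its 25 sites 1 was lower and 0 higher in GR-KO. That site lies in an intron, 948 bp downstream of a start, at chr17:29094529-29094929. Its −log10 p was 69.1, 121 and 53.4 in GR-Con 1, 2 and 3 and 20.2, 17.5 and 9.77 in GR-KO 1, 2 and 3. GR-Con 2 was the highest, and the lowest GR-Con value was still above every GR-KO value (score difference −0.75 ± 0.12 SE; adjusted p = 0.00224). The promoter site of Cdkn1a, 62 bp upstream of a start, had 66.4, 43.9 and 43.3 in GR-Con and 78.4, 31.0 and 39.9 in GR-KO, with overlap (adjusted p = 0.986). The bases within 100 bp of the centre of the intronic site, chr17:29094629-29094829 on the plus strand, hold the palindrome and a second match with 1 changed base, both in capitals.
Cdkn1a, 948 bp downstream: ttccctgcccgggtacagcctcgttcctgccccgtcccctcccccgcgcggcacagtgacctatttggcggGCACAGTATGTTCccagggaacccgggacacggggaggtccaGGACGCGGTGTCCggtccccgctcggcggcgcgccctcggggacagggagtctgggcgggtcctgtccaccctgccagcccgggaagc

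The fifth palindrome lies 50126 bp downstream of a start of Cdkn1a, in an intron of Rab44, at chr17:29147826-29148226. It had weak peaks, with a −log10 p of 5.97, 10.2 and 3.97 in GR-Con, 5.01 in GR-KO 1 and no peak in GR-KO 2 and 3, and it did not pass the test (adjusted p = 0.526). The call in the intron of Cdkn1a was lost without GR-Con 1 or 2 (adjusted p = 0.102 and 0.126), without the variance trend (0.142) and with the strongest covering peak (0.122).

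**Figure D2:**
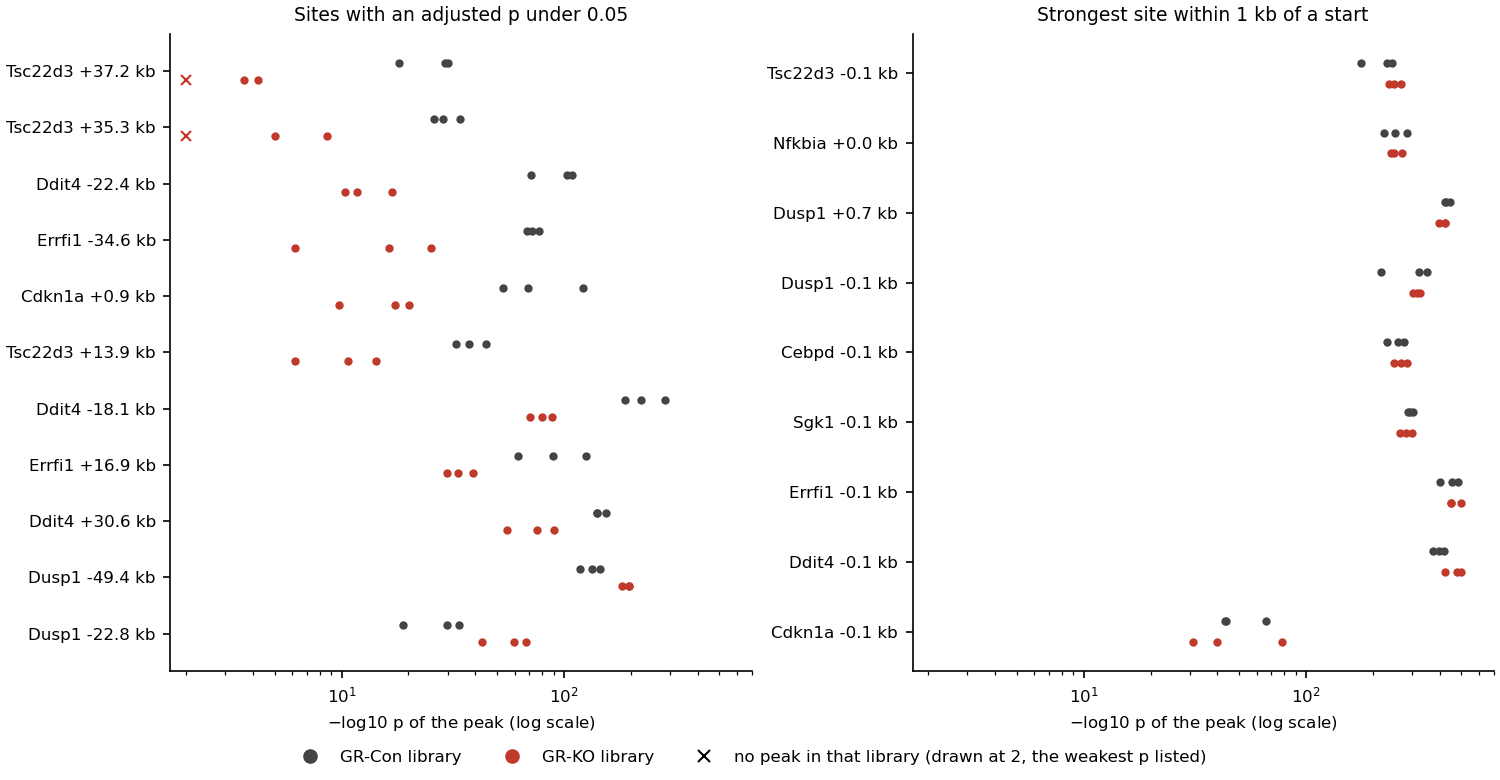
The left panel plots the −log10 p of the peak, on a log scale, in each GR-Con and GR-KO library at the 11 sites with an adjusted p under 0.05, ordered by score difference and labelled with the distance to the nearest start of the gene; crosses at 2, the weakest p listed, stand for no peak. The right panel plots the strongest promoter site of each gene in the same way, with a second row for the inner start of Dusp1. The conditions are apart at all sites on the left; on the right their −log10 p overlap in every row but those of Ddit4 and of the outer start of Dusp1.

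Dusp1 (ENSMUSG00000024190.7, chr17:26505590-26562128, minus strand) encodes a phosphatase that switches off MAP kinases. By the rank of −log10 p it was the 1 gene of the 8 with sites higher in GR-KO, 2 of 27, and it had 0 lower ones (1 at an unadjusted p under 0.05). Its window is wide because an annotated long transcript starts next to Ergic1, far upstream of the start of its usual short transcript. The site at chr17:26611304-26611704 had a −log10 p of 118, 145 and 134 in GR-Con 1, 2 and 3, against 183, 197 and 196 in GR-KO 1, 2 and 3 (score difference 0.27 ± 0.06 SE; adjusted p = 0.0227). The site at chr17:26584768-26585168 had 18.8, 33.6 and 29.8 in GR-Con and 59.5, 43.0 and 67.5 in GR-KO (score difference 0.40 ± 0.10 SE; adjusted p = 0.0469). Both rank higher in every GR-KO library and both lie in introns of Ergic1, 102985 and 76449 bp upstream of the short start of Dusp1. Each lost its call without any 1 library (adjusted p = 0.0639 to 0.167 and 0.0884 to 0.238) and also without the variance trend (0.299 and 0.281), with the strongest covering peak (0.0808 and 0.194) and with sites of 100 bp to each side (0.0663 and 0.129). With a block for the replicate number both were lost as well (0.0570 and 0.122). The second was also lost when a site needed a peak in at least 3 libraries (0.0549).

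The strongest site within 1 kb of a Dusp1 start lay 24 bp from a start of Ergic1 as well and had a −log10 p of 424, 429 and 445 in GR-Con, against 397, 423 and 423 in GR-KO (adjusted p = 0.709). The promoter site of the short transcript, chosen after its values were seen, lay 136 bp upstream of that start. It had 352, 322 and 218 in GR-Con and 303, 325 and 317 in GR-KO, with the lowest and the highest value both in GR-Con (adjusted p = 0.793).

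Nfkbia (ENSMUSG00000021025.8, chr12:55489410-55492647, minus strand) encodes IκBα, which holds NF-κB in the cytoplasm. None of its 22 sites passed the test, and at an unadjusted p under 0.05, which 6.37% of all sites pass as lower and 6.98% as higher, it had 6 lower and 2 higher sites. The site with the smallest p lay 49297 bp downstream, at chr12:55443150-55443550, where the nearest coding start is that of Psma6, 44575 bp away. It had a −log10 p of 136, 138 and 144 in GR-Con 1, 2 and 3, against 83.9, 91.9 and 89.2 in GR-KO 1, 2 and 3. The libraries of each condition were close together and did not overlap with the other condition (score difference −0.22 ± 0.06 SE; adjusted p = 0.0661). By scaled summit coverage the same site differed by −0.43 on the log2 scale and passed the test (adjusted p = 0.0120). The promoter site of Nfkbia, 43 bp past the start, had 252, 285 and 225 in GR-Con and 250, 270 and 242 in GR-KO (adjusted p = 0.950).

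Cebpd (ENSMUSG00000071637.5, chr16:15887286-15891031, plus strand) encodes the transcription factor C/EBPδ and had the fewest sites, 9, none of which passed the test (1 lower and 0 higher at an unadjusted p under 0.05). That site, 2413 bp downstream at chr16:15889499-15889899, lies in the 3′ UTR of Cebpd and in a coding exon of Spidr on the other strand. It had a −log10 p of 16.0, 17.1 and 17.3 in GR-Con, no peak in GR-KO 1 and 2 and 7.15 in GR-KO 3 (adjusted p = 0.102). The promoter site, 90 bp upstream, had 261, 276 and 232 in GR-Con and 269, 285 and 248 in GR-KO, with overlap (adjusted p = 0.796).

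Sgk1 (ENSMUSG00000019970.15, chr10:21882184-21999903, plus strand) encodes a kinase that controls ion channels and transporters. None of its 16 sites passed the test, and 3 were lower and 1 higher at an unadjusted p under 0.05, against the same 6.37% and 6.98% of all sites. The smallest p was at its outermost start, 138 bp downstream at chr10:21882122-21882522, where GR-Con had 11.9, 9.60 and 11.4, GR-KO 2 had 4.95, and GR-KO 1 and 3 had no peak (adjusted p = 0.185). These peaks are weak, and the main promoter site 89 bp upstream of an inner start had 287, 293 and 302 in GR-Con and 264, 282 and 301 in GR-KO (adjusted p = 0.924).

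The rank of fold gave a different count from the rank of −log10 p. By fold 0 of the 169 sites were lower in GR-KO, against 0.127% of all sites, and 1 was higher, or 0.592% against 0.0615% of all sites; at an unadjusted p under 0.05 limma gave 17 lower and 20 higher, or 10.1% and 11.8% against 6.02% and 6.11% of all sites. At all 9 sites lower by −log10 p the fold too was lower in every GR-KO than in every GR-Con library, with score differences of −0.94 to −0.17, but none passed the test (adjusted p = 0.0966 to 0.393). The fold is a ratio to the local background. At the lower sites the background was lower in GR-KO as well, and its part in the result by fold was not tested. At the 7 lower sites with a peak in all 6 libraries the log2 ratio of the depth-scaled background, GR-KO over GR-Con, was −1.27 to −0.18, with a median of −0.34, and over the 119 such sites of the 8 genes its median was −0.11. At the Ddit4 site 18102 bp upstream the background was 20.9, 22.1 and 18.6 in GR-Con and 8.07, 8.17 and 8.84 in GR-KO. The fold there was 13.5, 15.3 and 13.0 in GR-Con and 11.0, 12.6 and 11.4 in GR-KO, the smallest score difference by fold among the 9. At the Ddit4 site 22442 bp upstream the background was 27.2, 31.1 and 25.7 in GR-Con and 11.1, 11.4 and 11.2 in GR-KO, and the fold was 7.46, 6.75 and 6.03 in GR-Con against 4.13, 3.22 and 3.44 in GR-KO (adjusted p = 0.120).

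**Figure D3:**
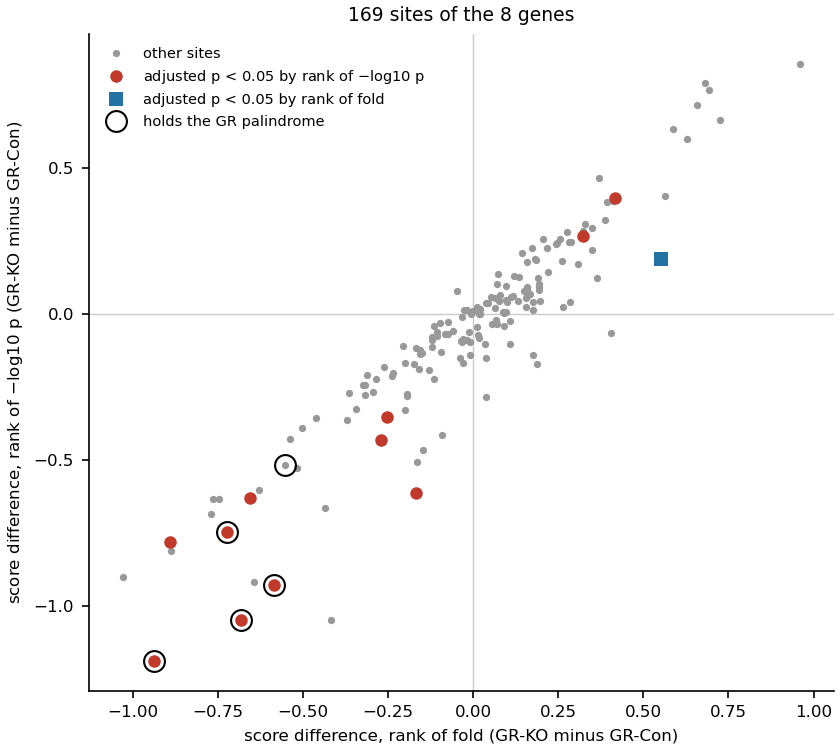
Each point is 1 of the 169 sites, with the score difference by rank of fold on the horizontal axis and by rank of −log10 p on the vertical axis, both GR-KO minus GR-Con. Red points are the 11 sites called by −log10 p, the blue square is the Tsc22d3 site called by fold, and rings mark the 5 sites with the palindrome, which all lie in the lower left.

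Summit coverage, an estimate that sets the libraries on a shared scale, could be compared at the 119 sites with a peak in all 6 libraries. Scaled by depth, 17 sites were lower and 2 higher in GR-KO, or 14.3% and 1.68%, against 3.93% and 1.97% of all 99768 such sites. Scaled by the median of the libraries, 15 were lower and 5 higher, or 12.6% and 4.2%, against 2.62% and 4.68%. The 17 included the 7 called by rank that had all 6 peaks, and 10 others that did not pass by the rank of −log10 p (adjusted p = 0.0661 to 0.671). All 10 had a negative score difference by −log10 p, but coverage is solved from that same value, so the shared sign is not independent. Of these 10, 3 lay at Ddit4, 3 at Nfkbia, 3 at Tsc22d3 and 1 at Cdkn1a, and they are described after their values were seen. The Ddit4 sites 26454 and 27104 bp upstream, next to the palindromic site, had coverages of 100.5, 99.0 and 78.7 and of 135, 178 and 164 reads in GR-Con. In GR-KO they had 52.9, 49.8 and 51.2 and 95.1, 74.8 and 69.6 (log2 differences −0.85 and −0.997; adjusted p = 8.15e-04 and 3.31e-08). Their peak intervals had the same widths in every library, so they are likely 2 summits of 1 interval. The nearest coding start to both is that of Anapc16. The Nfkbia site 7689 bp downstream had 347, 352 and 248 in GR-Con and 223, 245 and 225 in GR-KO (log2 difference −0.43; adjusted p = 0.0110). The site 242 bp upstream of the long start of Tsc22d3 had 155, 132 and 124 in GR-Con and 87.2, 96.6 and 99.3 in GR-KO (log2 difference −0.53; adjusted p = 0.0138). At each of these 4 sites no GR-KO library reached the lowest GR-Con value. The 10 were picked as lower by this same coverage, so such separation is largely built in, and its share over all sites was not counted. At the Cdkn1a site 17378 bp upstream the conditions overlapped, with 136, 93.8 and 80.5 in GR-Con and 45.1, 89.3 and 56.3 in GR-KO (log2 difference −0.73; adjusted p = 0.00340). By fold the score difference was negative at 6 of the 10 and positive at 4, from −0.20 to 0.40, and none passed that test (adjusted p = 0.0616 to 0.987). The 2 sites higher by depth scaling were those called at Dusp1. By median scaling 3 more were higher: the Ddit4 sites 20699 and 52013 bp downstream (log2 differences 0.46 and 0.26; adjusted p = 0.0115 and 0.0440) and a Cdkn1a site 40163 bp upstream (0.45; adjusted p = 0.00513). By depth scaling these 3 did not pass the test (adjusted p = 0.0966, 0.505 and 0.0781). The nearest coding start is that of Dnajb12 for the Ddit4 site at 52013 bp and that of Srsf3 for the Cdkn1a site.

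**Figure D4:**
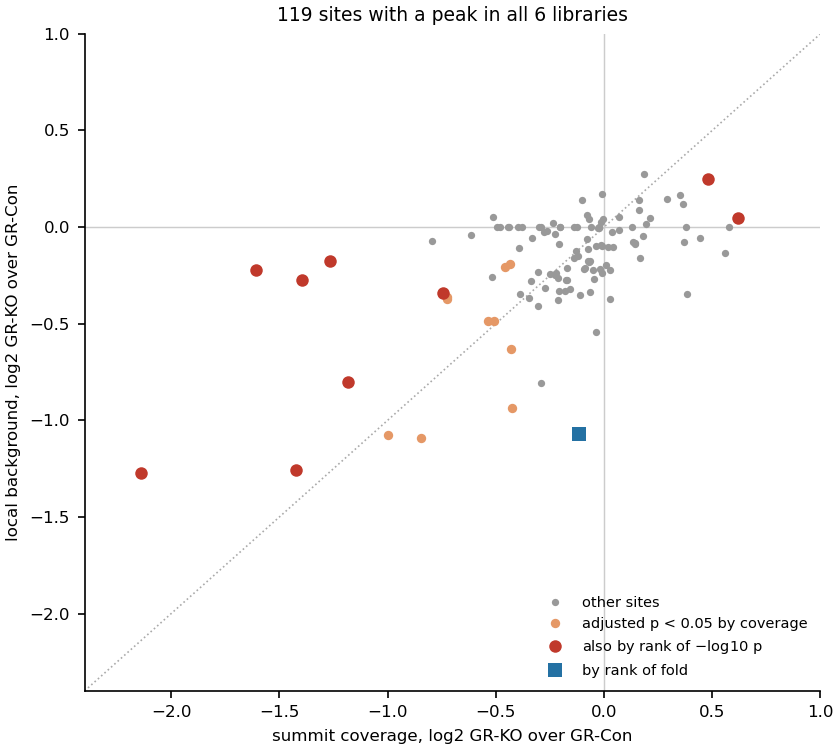
Each point is 1 of the 119 sites with a peak in all 6 libraries, with the log2 ratio of depth-scaled summit coverage, GR-KO over GR-Con, on the horizontal axis and that of the local background on the vertical axis; the dotted line marks equal ratios. The sites lower by rank of −log10 p, in red, lie at coverage differences from −2.14 to −0.74, and the Tsc22d3 site called by fold, the blue square, has a coverage difference of −0.12 beside a background ratio of −1.07.

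For comparison, the same rule was applied to 14 other genes that glucocorticoids are known to induce and to 14 relatives of the 8 genes in sequence. The other inducible genes held 300 sites, of which 19 were lower in GR-KO and 2 higher, or 6.33% and 0.667%. The relatives, such as Tsc22d1, Sgk3 and Cebpb, held 243 sites, of which 1 was lower, at Cebpa, and 1 higher, at Cdkn1b, or 0.412% each. The share lower at the 8 genes by this measure was 5.33%. By fold 5 of the 300 sites of the other inducible genes were lower, or 1.67%, and 1 was higher, or 0.333%, and none of the relatives' passed in either direction. A peak in every GR-Con and no GR-KO library was found at 10 sites of the other inducible genes, or 3.33%, at 4 of the relatives, or 1.65%, and at 0 of the 8 genes, against 1.15% of all sites. The reverse, a peak in every GR-KO and no GR-Con library, was found at 2, 1 and 0 sites, or 0.667%, 0.412% and 0%, against 0.622% of all sites. The differences between lists were not tested.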

How the data were processed

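The authors ran the pipeline that ENCODE provides for ATAC-seq (version 2.2.0, multimapping reads dropped, a peak p limit of 0.01) on each library alone and deposited 1 peak list per library on mm10, the build the submitters' processing notes name. Per peak the lists hold the summit, a capped score (the deposited score column reaches 1000), a fold ratio over the local background, and −log10 p and −log10 q. No read counts were used, so the study's own test, DiffBind with edgeR, was not repeated; relative depth was read from the lowest background.

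The deposited lists repeat 1 interval for several summits, so a site took the strongest peak whose summit lay in it. Each site spans 200 bp on both sides of a summit; the best ranked summits of any list were placed first, overlapping ones were dropped, and sites were kept with a peak in at least 2 libraries. Ranks of the deposited −log10 p and fold ratio were made normal scores and compared with limma 3.58.1 (two-sided, variance trend, no block, all 160874 sites). Summit coverage was solved from fold and p; whole reads, within 0.05, came out for 100% of peaks. No peak ended beyond its chromosome (0 of 1116429). Gene models were GENCODE M21 and sequences RefSeq GRCm38, read with pysam 0.24.0 in Python 3.11.15. In simulated scores over 160874 sites for GR-KO against GR-Con, 23 of 100 sites shifted by 1 and 8 of 100 shifted by 0.5 were called, with 1 other call. Most shifts of these sizes were thus missed in the simulation. Its shifted sites were drawn at random over all strengths, so it does not give the share missed at strong sites. How many true differences these data hold was not measured.

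The members and lists were chosen with earlier results of these data known. Named sites are each gene's strongest site within 1 kb of a start, its site of smallest p, every called site, and every site with the exact palindrome; others are said to be chosen after their values were seen. Alternatives were other peak assignment, q under 0.01, equal list lengths, sites in at least 3 or in all 6 libraries, sites reaching 100 bp to each side, windows of 25 and 100 kb, no variance trend, a replicate block, leaving out each library, and summit coverage scaled by the median or by quantiles. Coverage scaled by depth, and the median scaling with a block, were added after seeing the data.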

Additional observations from a re-analysis of the deposited data

How the results depend on the processing

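At the 9 lower and 2 higher sites of the 8 genes the direction by −log10 p was the same under every alternative that gave a value, but calls were lost under several. The 8 genes had 1 lower and 0 higher site without the variance trend, 2 and 1 with the strongest covering peak, 4 and 0 with sites of 100 bp to each side, 5 and 1 in windows of 25 kb, and 2 to 6 and 0 with 1 library left out; sites in at least 3 libraries gave 1 higher. They had 15 lower and 5 higher by median-scaled coverage, 16 and 4 by quantiles, 17 and 2 by depth, and 16 and 7 by the median with a replicate block. By fold, 0 were higher without the variance trend, with the block, with sites of 100 bp to each side, at 25 kb or without any 1 library, and 1 was lower and 2 higher with the covering peak. Sites with peaks in one condition only were 5 (GR-Con) and 1 (GR-KO) with the covering peak, 2 in GR-Con with sites of 100 bp to each side, 3 and 1 at 100 kb, and 1 to 4 and 0 to 2 with 1 library left out.

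Over all sites by −log10 p, the count lower and higher was 726 and 523 with the replicate block, 497 and 282 with the covering peak, 707 and 529 with sites of 100 bp to each side, and 181 to 816 and 202 to 384 without 1 library; 808 were higher without the variance trend. By coverage it was 2618 and 4669 (median), 2922 and 3235 (quantiles), 3924 and 1966 (depth) and 3206 and 6448 (median with block). By fold it was 0 and 0 with the block, 1073 and 769 without the trend, 445 and 242 with the covering peak, 79 and 32 with sites of 100 bp to each side, 0 to 3 and 0 without 1 library, and 169 and 153 were higher in all 6 or at least 3 libraries. Peaks in one condition only numbered 3072 to 3769 (GR-Con) and 1739 to 2342 (GR-KO) without 1 library. The Tsc22d3 site at 39101 bp, higher by fold, reversed on coverage, at −0.022 (median, with or without the block), −0.0326 (quantiles) and −0.12 (depth). The cause of these shifts was not tested.

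The replicate numbers share only a number: deviations of same-numbered libraries correlated at 0.031, −0.007 and 0.026 over all sites. With the replicate block 6 of the 9 lower sites were called; the sites of Tsc22d3 at 37196, 35326 and 13947 bp had an adjusted p of 0.0807, 0.0950 and 0.119, and those of Dusp1 0.0570 and 0.122.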

Other observations

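Among the 14 other glucocorticoid-inducible genes the lower sites were spread over 11 genes. Fkbp5, which encodes a co-chaperone of the receptor, held 8 of its 26 sites, and Zbtb16, a zinc finger transcription factor, 3 of 44. The strongest of the Zbtb16 sites had a −log10 p of 316, 343 and 209 in GR-Con and of 86.6, 35.6 and 72.8 in GR-KO. At 1 site of Sult1a1, a sulfotransferase, it was 205, 183 and 143 in GR-Con and 5.84, 21.6 and 18.6 in GR-KO. Klf9, Glul, Plin4, Map3k6, Arrdc2 and Pdk4 each held 1 lower site, and Mt1 and Mt2 shared 1. No called site was found at Per1, Lcn2 or Anxa1. Pdk4, a kinase that restrains pyruvate dehydrogenase, also held both higher sites of this list, with a −log10 p of 125, 128 and 94.9 in GR-Con against 256, 323 and 222 in GR-KO at the stronger one.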
